A study of Canis lupus with 23 samples.

Results

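The genes described here are 9 genes of the p53 and RB pathways and the G1 cyclins: MDM2, CDKN1A, CDKN2A, CDKN2B, RB1, CCND1, CCND2, CCND3 and CDK4. They were found by their symbol in the platform annotation, and 8 of the 9 had a probeset, 15 probesets in all. No probeset used here carried the symbol CDKN2A. Of the 15115 genes with a symbol on the array, 9972 passed a filter on low values, which 7 of the 9 genes passed. CDKN2B did not pass and is described without a test.

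The values are from biopsies of 23 tumors that arose naturally in dogs, 1 Affymetrix Canine Genome 2.0 array per tumor. They comprise 7 lymphomas, 5 melanomas, 4 sarcomas (2 titled STS, soft tissue sarcoma, and 2 titled sarcoma, joined as 1 type), 3 transitional cell carcinomas of the bladder (TCC), and 1 tumor each of hepatocellular carcinoma (HCC), nasal tumor, HSA (hemangiosarcoma) and histiocytic sarcoma. Tumors are called by the number in their title. The labels give no treatment, age or breed per tumor, and tumors were grouped by diagnosis alone, with the 2 sarcoma titles joined. The study admitted only dogs whose disease was untreated. Some of its cohorts were set by breed, namely Scottish terriers for TCC and golden retrievers for lymphoma. Breed therefore cannot be told apart from type in differences with TCC or lymphoma. Normal tissue was not analysed here. Values are log2(signal + 16), averaged over the probesets of a gene, where the signal is the array software's MAS5 intensity. A difference on this scale understates the change of low genes. Levels of different genes were not compared with each other, since each probeset has its own response.

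The p53 protein halts the cell cycle or kills the cell after DNA damage. MDM2 marks p53 for destruction and is itself switched on by p53, and CDKN1A (p21) is the p53 target that blocks cyclin-dependent kinases. In the RB pathway, the D-type cyclins (CCND1, CCND2, CCND3) bind CDK4 or CDK6, and the resulting kinase phosphorylates RB1, which then releases E2F factors that turn on the genes for DNA replication. The products of CDKN2A and CDKN2B inhibit CDK4 and CDK6, and a second product of CDKN2A inhibits MDM2. Different tissues use different D-type cyclins, and lymphocytes are known for CCND2 and CCND3.

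The mean over 7 melanocyte genes was 10.7 to 11.4 in the melanomas and at most 6.26 in any other tumor, the mean over 6 epithelial genes was 12.5 to 12.6 in TCC, and the mean over 9 lymphocyte genes was 9.71 to 11.7 in the lymphomas. Histiocytic sarcoma (9.79) lay within the lymphoma range of the lymphocyte genes, and HSA (9.39) and 1 sarcoma (9.07) came near it. Each array had a median signal of 82.1 to 132, with 19.8% to 27.2% of the probesets below a signal of 16. Nothing in the labels pairs tumors or names a batch. The tests below compared lymphoma, melanoma, sarcoma and TCC in 1 limma fit over 19 tumors, with Benjamini-Hochberg adjustment over all 9972 genes. A gene counted as called by the F test over the 4 types if its adjusted p was under 0.05. A pair of types needed in addition a log2 difference of at least 1.

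The F test called 4 of the 7 tested genes, against 35.6% of all genes. These were CCND1 (adjusted p = 0.00569), CDKN1A (0.00893), CDK4 (0.0178) and CCND3 (0.0219). MDM2 (0.323), CCND2 (0.403) and RB1 (0.425) did not pass. Among the 42 gene-by-pair differences, 7 were called, in the same 4 genes, against 11.8% of such differences over all genes.

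**Figure D1:**
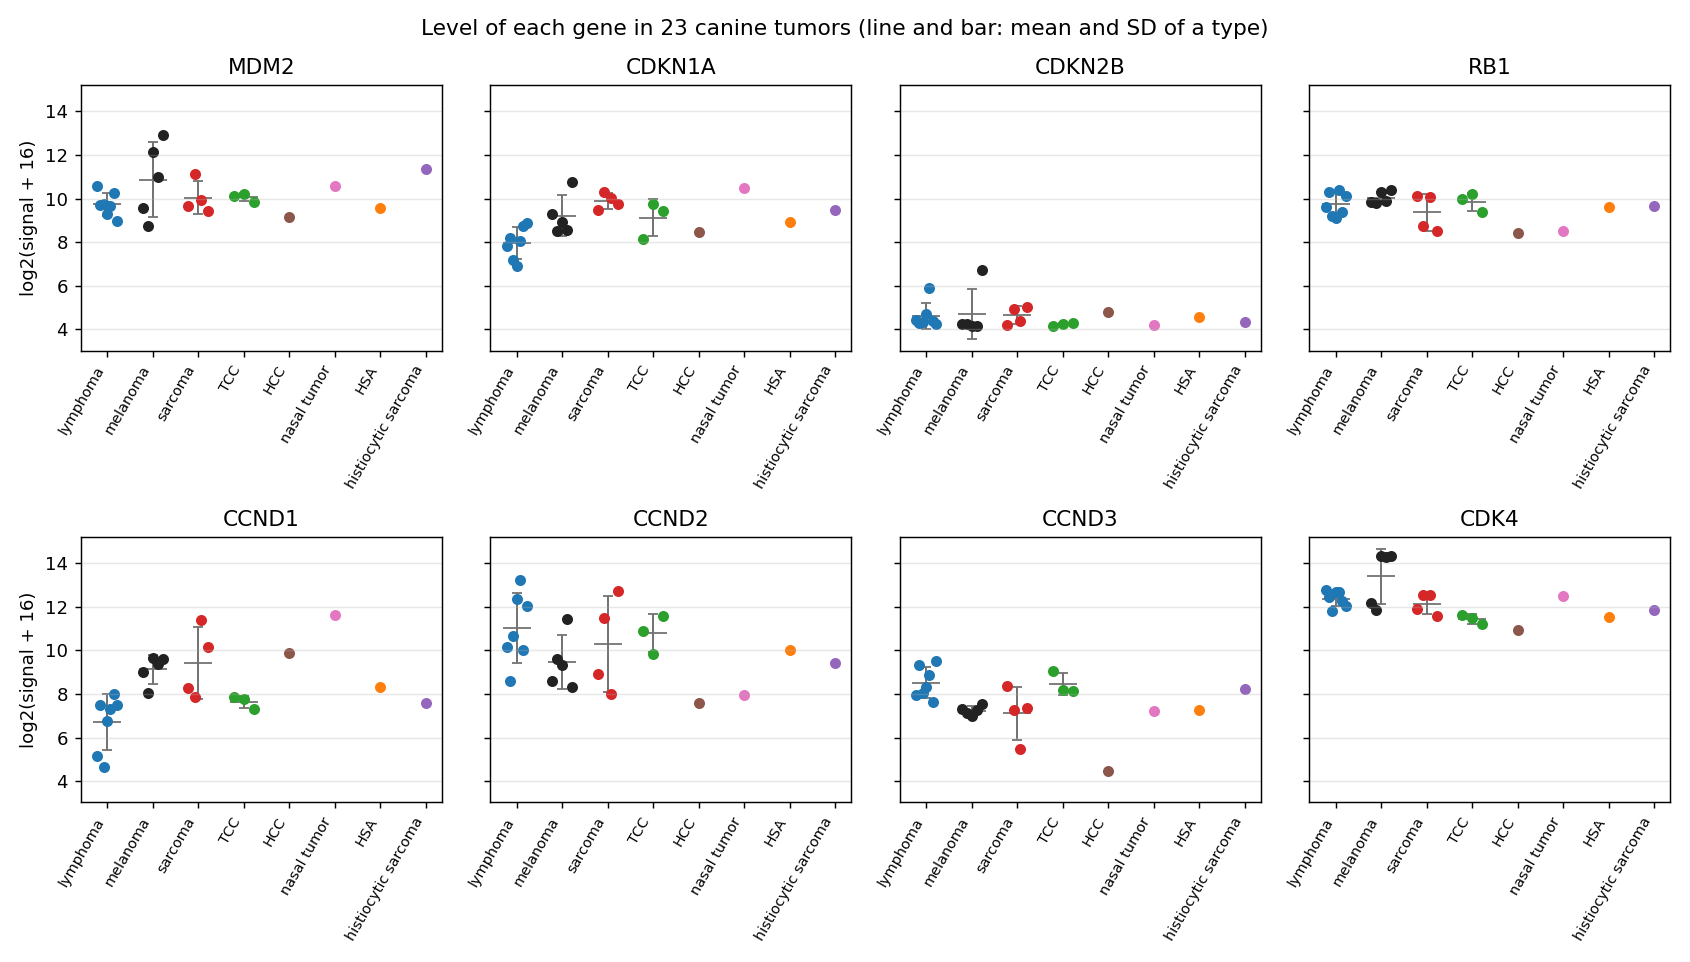
Each point is 1 tumor, by type on the horizontal axis, and the vertical axis is log2(signal + 16) of the named gene; the line and bar are the mean and SD of a type with more than 1 tumor. Melanomas 2, 3 and 4 stand at 14.3 to 14.4 for CDK4, above every other tumor, and CDKN2B is near the floor in most tumors. Heights are not comparable between panels.

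MDM2 was highest in 2 of the melanomas and varied more within that type than between types. Its level was 9.58 in melanoma 0, 8.77 in melanoma 1, 12.1 in melanoma 2, 11.0 in melanoma 3 and 12.9 in melanoma 4. Melanoma thus held the lowest and the highest of the 23 values. The next level below melanomas 4 and 2 was 11.3 in histiocytic sarcoma, followed by 11.1 in sarcoma 1. The other 3 sarcomas had 9.65 (sarcoma 0), 9.95 (soft tissue sarcoma 0) and 9.45 (soft tissue sarcoma 1). Levels were 8.99 to 10.6 in the lymphomas, with a median of 9.69, and 9.87 to 10.2 in TCC. Means fell in the order melanoma (10.9 ± 1.72, SD, n = 5), TCC (10.1 ± 0.18, n = 3), sarcoma (10.04 ± 0.75, n = 4) and lymphoma (9.75 ± 0.53, n = 7), and no 2 neighbours in that order differed beyond their spread. The largest difference, lymphoma minus melanoma, was -1.13 with a 95% interval of -2.24 to -0.03 and an adjusted p of 0.134 by limma, and without melanoma 1 it was called at an adjusted p of 0.0209. The 3 MDM2 probesets each had their highest value in melanoma 4 and followed each other closely across tumors (r of at least 0.963 with the mean of the other probesets). The spread within types, as the residual SD of the fit, was 1.01 log2 units, above that of 85.8% of all tested genes, whose median was 0.567.

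CDKN1A was lower in lymphoma than in sarcoma and melanoma. Its levels in the 7 lymphomas ran from 6.92 to 8.87 with a median of 8.05. The sarcomas had 9.49, 10.3, 10.04 and 9.74, the melanomas 9.31, 8.49, 8.94, 8.57 and 10.8, and TCC 8.17, 9.77 and 9.45. Averaged over the 3 probesets, all 4 sarcomas lay above all 7 lymphomas, whereas the melanomas and TCC overlapped the lymphomas. The probeset least like the others (r = 0.766) differed. On it lymphoma 0 (7.65) lay above sarcoma 0 (7.60) and soft tissue sarcoma 1 (7.64). Melanomas 0 to 3, at 6.66 to 7.03, lay there within the lymphoma range of 4.75 to 7.65, and melanoma 4 was at 8.87. The type means were 9.90 ± 0.35 in sarcoma, 9.22 ± 0.93 in melanoma, 9.13 ± 0.85 in TCC and 7.97 ± 0.73 in lymphoma. Lymphoma minus sarcoma was -1.93 (SE 0.44, limma adjusted p = 0.00365) and lymphoma minus melanoma was -1.25 (SE 0.41, adjusted p = 0.0349). Of all genes, 10.5% were called lower in lymphoma than in sarcoma and 9.35% lower in lymphoma than in melanoma. The sarcoma call held whichever single tumor was left out, while the melanoma call was lost without lymphoma 0, 2 or 3 or melanoma 0 or 4, with adjusted p up to 0.116. Against TCC the difference of -1.16 was not called (adjusted p = 0.0905, with 10.4% of genes called in that direction), and it was called without melanoma 4 or TCC 0, at -1.64 without TCC 0. The highest single level of CDKN1A was that of melanoma 4, and the nasal tumor was second at 10.5.

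The low CDKN1A level of lymphoma stood beside differences in tissue makeup. Averaged over 9 fibroblast and matrix genes, lymphoma had levels of 7.75 to 9.06, melanoma 9.65 to 11.8, sarcoma 10.9 to 12.6 and TCC 9.44 to 10.7, and all 9 genes were called lower in lymphoma than in sarcoma. The lymphocyte genes went the other way, at 5.91 to 8.23 in melanoma, 5.92 to 9.07 in sarcoma and 5.87 to 6.28 in TCC, with 8 of 9 called higher in lymphoma against melanoma and against sarcoma. Of all genes, 10.5% were called lower in lymphoma than in sarcoma. Calls higher in lymphoma made up 6.01% against melanoma and 6.44% against sarcoma. Each marker had a signal above 0 in every tumor, which does not show that it was expressed there. The part of tissue makeup in the CDKN1A and cyclin differences was not tested. In bulk tumors, fewer cells of a type and less RNA per cell cannot be told apart.

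Genes around MDM2 and CDKN1A in the p53 pathway were read from lists of p53 regulators and p53 targets. Of the 11 tested p53 regulators, 3 were called by the F test, a share below the 35.6% of all genes. CHEK2, the checkpoint kinase that phosphorylates p53, was higher in lymphoma than in each other type, by 2.02 over TCC (SE 0.29, limma adjusted p = 4.25e-05), 1.31 over sarcoma and 1.14 over melanoma. ATR and ATM, the kinases that sense DNA damage, were higher in lymphoma by 1.12 over sarcoma (adjusted p = 0.00927) and 1.09 over TCC (adjusted p = 0.0271). MDM4, a relative of MDM2 that also inhibits p53, was higher in lymphoma than in sarcoma by 1.01 (adjusted p = 0.0165). Every call in this list was higher in lymphoma: 1 against melanoma, 3 against sarcoma and 2 against TCC. The list's median difference in those pairs was 0.48, 0.58 and 0.65, beside 0.10, 0.09 and 0.11 over all genes. Calls higher in lymphoma made up 6.01%, 6.44% and 7.69% of all genes.

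Of the 17 tested p53 target genes other than MDM2 and CDKN1A, 4 passed the F test, a share below the 35.6% of all genes. The pair calls ran in both directions, and the 4 with the largest differences are given first; of these SESN1 alone also passed the F test. SESN1, a stress-induced regulator of growth signalling, was higher in lymphoma than in melanoma by 1.84 (limma adjusted p = 0.0256). ZMAT3 was lower in lymphoma than in sarcoma (difference of -1.68, adjusted p = 0.0397), as was TP53INP1 in lymphoma against TCC (-1.79, adjusted p = 0.0419). PPM1D, a phosphatase that switches p53 signalling off, was lower in sarcoma than in TCC (-1.80, adjusted p = 0.0452). In lymphoma minus melanoma, 2 other targets were called: FDXR at 1.17 (adjusted p = 0.0495) and TIGAR at -1.15 (adjusted p = 0.00314). The list's median difference was 0.20 for lymphoma minus melanoma, 0.07 for lymphoma minus sarcoma and 0.08 for lymphoma minus TCC. In single tumors, the median distance of the 17 genes from their 23-tumor medians ran from -0.48 to 0.19. It was 0.00 in melanoma 2, 0.16 in melanoma 3 and 0.00 in melanoma 4, and -0.17 and -0.48 in melanomas 0 and 1.

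The CDK4 inhibitor CDKN2B was near the floor of the array. Its single probeset had a signal under 16 in 20 of the 23 tumors, with a median level of 4.34. The highest level was 6.72 in melanoma 4, followed by 5.89 in lymphoma 4, and no other tumor was above 5.03. For the neighbours of CDKN2A and CDKN2B, 2 genes on the list passed the filter, 1 of them called by the F test, beside 35.6% of all genes. The called gene was MLLT3, lower in lymphoma and in sarcoma than in TCC, directions in which 10.4% and 4.99% of all genes were called. The other was MTAP, a salvage enzyme of the polyamine pathway next to CDKN2A, chosen for description after its values were seen. MTAP was at 7.05 in lymphoma 1, 6.71 in lymphoma 3, 7.84 in lymphoma 4, 7.24 in lymphoma 6 and 7.20 in soft tissue sarcoma 1. In the other 18 tumors it was at 8.90 or above, with 10.3, 9.78 and 10.4 in lymphomas 0, 2 and 5. Lymphoma therefore held both low and high tumors. DNA copy number was not measured.

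RB1 differed little. Its levels were 9.12 to 10.4 in lymphoma, 9.78 to 10.4 in melanoma, 8.51 to 10.1 in sarcoma and 9.37 to 10.2 in TCC, so that all 4 types overlapped. The means were 10.03 ± 0.28 in melanoma, 9.85 ± 0.43 in TCC, 9.74 ± 0.53 in lymphoma and 9.37 ± 0.85 in sarcoma, with no pair called. The largest difference, melanoma minus sarcoma, was 0.67 with a 95% interval of -0.07 to 1.40 (limma adjusted p = 0.416). In that pair 0.933% of genes were called higher in melanoma and 0.852% lower. The lowest levels were 8.45 in HCC, 8.49 in the nasal tumor, 8.51 in soft tissue sarcoma 1 and 8.77 in sarcoma 1. The residual SD of 0.55 put RB1 near the middle of all genes, at the 47.9th percentile. Of the 5 tested neighbours of RB1 none was called by the F test (limma), beside 35.6% of all genes. Between pairs of types 1 was called, lower in lymphoma than in TCC, a direction in which 10.4% of all genes were called.

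Among the relatives and partners of RB1, 5 of 7 tested genes of the RB family and the E2F factors were called by the F test, beside 35.6% of all genes. TFDP2, the partner with which E2F factors bind DNA, was higher in lymphoma than in melanoma by 2.41 (limma adjusted p = 0.00529). E2F8 and E2F3 were higher in lymphoma than in sarcoma, by 1.68 (adjusted p = 0.00783) and 1.39 (adjusted p = 0.0148). E2F5, which acts mainly as a repressor, went the other way: its mean was 10.3 in TCC and 7.66 in sarcoma, a sarcoma minus TCC difference of -2.65 (adjusted p = 0.00564), and it was also lower in lymphoma than in TCC (-1.99). Of all genes, 4.99% were called lower in sarcoma than in TCC and 4.48% higher. Of 21 proliferation genes, 16 were called by the F test, and 15 were called higher in lymphoma against sarcoma, 6 against melanoma and 3 against TCC. Calls in those directions made up 6.44%, 6.01% and 7.69% of all genes. The list's median difference in these pairs was 1.30, 0.91 and 0.75. Among the 21 genes MCM5, part of the replicative helicase, was higher in lymphoma than in melanoma by 2.27. The list had mean levels of 9.74 to 10.8 among lymphomas, 8.31 to 9.86 among melanomas, 8.28 to 9.04 among sarcomas and 9.26 to 9.41 among TCC. Whether the E2F differences follow those of the proliferation genes was not tested.

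CCND1 was lower in lymphoma than in melanoma and sarcoma, the largest differences among the tested genes. Its lymphoma levels were 5.15, 7.50, 4.66, 6.74, 7.33, 7.99 and 7.49 in lymphomas 0 to 6. Those of lymphomas 0 and 2 were near the floor, with a signal under 16 on at least 1 probeset. The melanomas had 9.02, 8.04, 9.67, 9.36 and 9.62, all above the lymphomas. The sarcomas divided by title: soft tissue sarcomas 0 and 1 had 11.4 and 10.1, and sarcomas 0 and 1 had 8.29 and 7.86. Of these, sarcoma 1 overlapped the lymphomas. TCC had 7.85, 7.76 and 7.33, within the lymphoma range. Averaged over the 2 probesets they lay below every melanoma and every sarcoma, though only just below sarcoma 1. Neither probeset alone showed this separation. On one, TCC 1 (8.04) was above sarcoma 1 (7.63) and melanoma 1 (7.98). On the other, TCC 0 (8.15) was above sarcoma 1 (8.08) and melanoma 1 (8.11). Sarcoma (9.42 ± 1.65) and melanoma (9.14 ± 0.67) were neighbours that did not differ beyond their spread, as were TCC (7.64 ± 0.28) and lymphoma (6.69 ± 1.28). Lymphoma minus melanoma was -2.45 (SE 0.61, limma adjusted p = 0.00745) and lymphoma minus sarcoma -2.72 (SE 0.65, adjusted p = 0.00532). Both calls held with any single tumor left out. The size of the sarcoma difference depended on joining the 2 titles: with only the tumors titled STS as sarcoma it was -4.07. The differences of melanoma and of sarcoma from TCC, 1.497 and 1.77, were not called (adjusted p = 0.241 and 0.174), where 3.53% and 4.48% of genes were called in those directions. The highest level of all was in the nasal tumor, at 11.6, and HCC was the fourth highest at 9.87.

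CCND2, measured by 1 probeset, was the most variable of the tested genes within types, and no pair of types was called. Its lymphoma levels were 10.1, 8.60, 10.7, 12.3, 13.2, 10.03 and 12.1 in lymphomas 0 to 6, and lymphoma 4 had the highest level of the 23 tumors. The sarcomas spanned 8.02 in soft tissue sarcoma 0 to 12.7 in soft tissue sarcoma 1. Melanoma 3 was at 11.4 while the other melanomas were at 8.32 to 9.61, and TCC was at 9.86 to 11.6. The means ran from 11.0 ± 1.60 in lymphoma over 10.8 ± 0.87 in TCC and 10.3 ± 2.19 in sarcoma to 9.46 ± 1.22 in melanoma. The widest difference, lymphoma minus melanoma, was 1.55 with a 95% interval of -0.15 to 3.25 (limma adjusted p = 0.185). The residual SD of 1.58 exceeded that of 97.7% of all genes. HCC had the lowest level, 7.59, and there 7 consecutive measured genes, CCND2 among them, were at least 1 log2 unit under their medians, with a median distance of -1.61. RAD51AP1, a recombination protein at the start of that stretch, stood at -2.26 from its median. It was lower still in HSA (-3.05), where CCND2 was at its median. How often lowered runs of this length occur over all genes was not counted. HCC also had the largest share of probesets below a signal of 16, at 27.2%.

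CCND3 was higher in lymphoma than in melanoma and sarcoma, the opposite of CCND1. The lymphoma levels were 7.97, 9.32, 8.02, 8.33, 8.86, 7.62 and 9.51. The melanomas lay in a narrow band from 6.99 to 7.54, below every lymphoma. The sarcomas had 8.37, 7.26, 5.46 and 7.35, and TCC 9.06, 8.16 and 8.16. Lymphoma (8.52 ± 0.72) and TCC (8.46 ± 0.52) were neighbours with a difference of 0.06 (95% interval -0.95 to 1.07), and melanoma (7.24 ± 0.21) and sarcoma (7.11 ± 1.21) were the lower pair. Lymphoma minus melanoma was 1.28 (SE 0.41, limma adjusted p = 0.0318) and lymphoma minus sarcoma 1.41 (SE 0.44, adjusted p = 0.0259). The sarcoma difference dropped to 0.86, and its adjusted p rose to 0.132, without soft tissue sarcoma 0. The melanoma call was lost without lymphoma 1, 4 or 6 or melanoma 0, 1, 2 or 3, with adjusted p up to 0.0640. Sarcoma minus TCC, at -1.35, was called without sarcoma 0 (adjusted p = 0.0370). HCC had a CCND3 level of 4.45, the lowest of all, at -3.17 from the 23-tumor median. CCND3 was measured by 1 probeset, whose signal of 5.90 in HCC was under 16, so this is a floor value. Of the 12 tested neighbours of the 3 D-type cyclin genes, 7 were called by the F test, beside 35.6% of all genes. CTTN, an actin-binding protein gene near CCND1, stood at -2.54 from its median in lymphoma 0, where CCND1 stood at -2.83 from its own. CTTN was below its median in all 7 lymphomas, however, also in lymphoma 5 (-0.66), where CCND1 was at its median, and FADD (0.11) and ANO1 (0.79), also neighbours of CCND1, were above theirs in lymphoma 0.

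Use of the D-type cyclins was compared by each tumor's distance from the median of each gene, which removes a constant offset between probesets but no difference in their slope or floor. Over the 23 tumors the SD was 1.68 for CCND1, 1.62 for CCND2 and 1.14 for CCND3, and which gene leads in a tumor depends on these spreads. The gene furthest above its own median, or least below it, was CCND2 in 5 lymphomas and CCND3 in the other 2. It was CCND1 in 4 melanomas and CCND2 in melanoma 3, although there CCND1 was close behind at 1.38 against 1.43. The sarcomas were divided between CCND1 (1 tumor), CCND2 (2) and CCND3 (1), and TCC between CCND3 (2) and CCND2 (1). CCND1 led in HCC, the nasal tumor and HSA, and CCND3 in histiocytic sarcoma. The lead was small in lymphoma 5, where all 3 genes were within 0.03 of their medians.

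**Figure D2:**
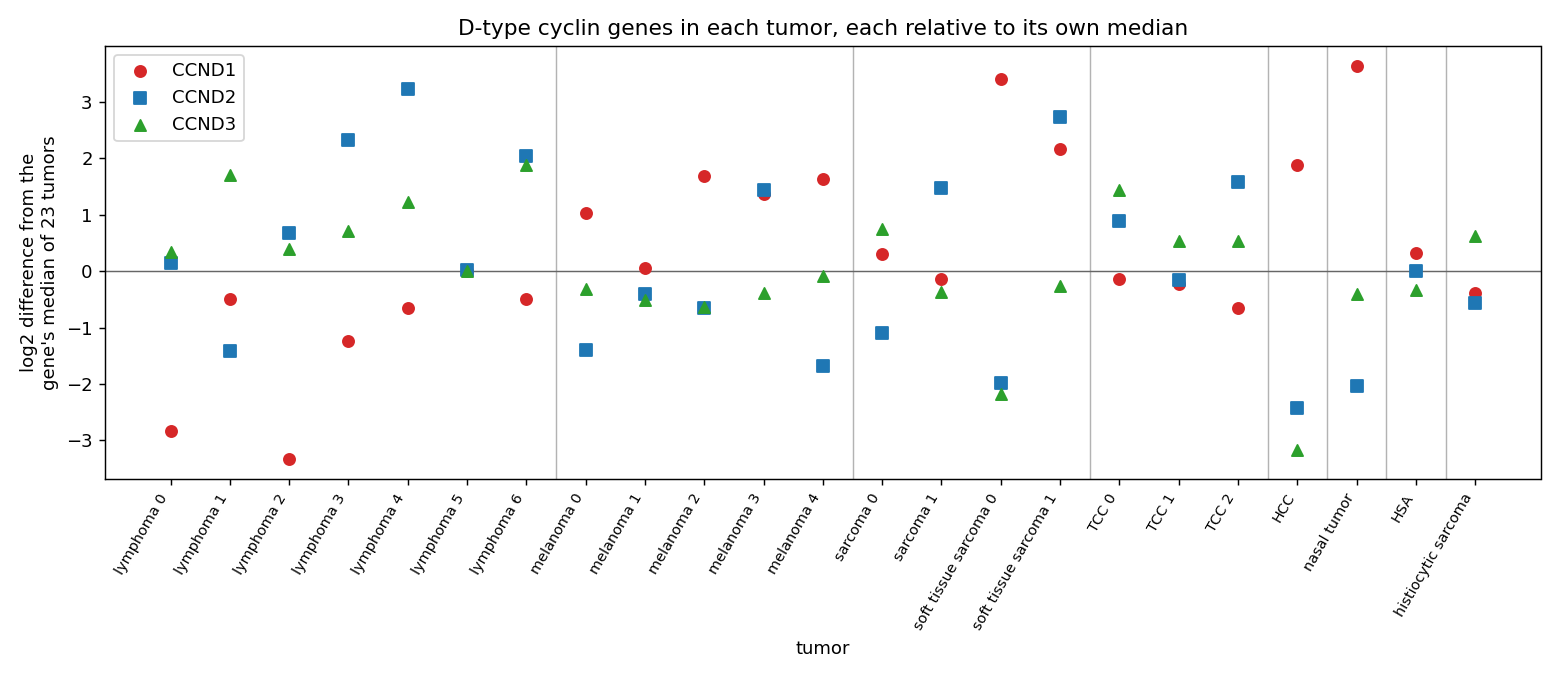
Each tumor on the horizontal axis has 3 points, the log2 distance of CCND1 (circles), CCND2 (squares) and CCND3 (triangles) from that gene's median over 23 tumors. CCND1 is the lowest of the 3 in 5 lymphomas and the highest in 4 of 5 melanomas.

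The same contrast was tested on log2 ratios between the cyclin genes, with exact two-sided permutation tests for 3 ratios in 6 pairs of types and p-values adjusted over the 18 comparisons. The ratio of CCND1 to CCND3, relative to its 23-tumor median, was -3.73 to 0 in the lymphomas and 0.58 to 2.32 in the melanomas, without overlap. The difference of the means was -3.73 (exact p = 0.00126, the smallest the 792 arrangements allow, adjusted p = 0.0227). In sarcoma the ratio was -0.44 to 5.57, and the lymphoma minus sarcoma difference was -4.13 (exact p = 0.00606, adjusted p = 0.0455). The ratio of CCND1 to CCND2 was -3.97 to 0.94 in the lymphomas and -0.03 to 3.34 in the melanomas, a difference of -3.99 (exact p = 0.00758, adjusted p = 0.0455). The ratio of CCND2 to CCND3 differed by less than its spread in every pair. Melanoma and TCC did not overlap in either CCND1 ratio, with differences of 2.81 and 2.72, but 5 against 3 tumors cannot give an exact p below 0.0179, and the adjusted p were 0.129 and 0.0804. Leaving out single tumors lost the 3 calls in 15, 11 and 14 of 19 cases for CCND1 to CCND2 in melanoma, CCND1 to CCND3 in melanoma and CCND1 to CCND3 in sarcoma. The difference stayed negative in each of those cases.

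Other G1 genes were called by the F test in 6 of 13 cases, beside 35.6% of all genes. CCNE2, a cyclin that drives entry into DNA replication, was higher in lymphoma than in sarcoma by 2.34 (SE 0.28, limma adjusted p = 1.15e-05). CDK2, the kinase partner of the E cyclins, was higher in melanoma than in sarcoma by 2.32 (adjusted p = 0.00729), than in TCC by 2.05 (0.00782), and its lymphoma minus melanoma difference was -1.14 (0.0393). It was also lower in sarcoma than in lymphoma, so that melanoma stood highest of the 4 types. CDC25A, the phosphatase that activates CDK2, was higher in lymphoma than in sarcoma by 1.79 (adjusted p = 0.0117). SKP2, which targets the CDK inhibitor p27 for degradation, was higher in lymphoma than in TCC by 1.77 (adjusted p = 0.00427).

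CDK4 was highest in 3 of the 5 melanomas. Melanomas 2, 3 and 4 had levels of 14.33, 14.27 and 14.35, and melanomas 0 and 1 had 12.15 and 11.87. The highest level outside melanoma was 12.77, in lymphoma 0. The lymphomas ranged from 11.8 to 12.8, the sarcomas from 11.6 to 12.6 and TCC from 11.2 to 11.6, below every lymphoma and every melanoma. The means were 13.4 ± 1.27 in melanoma, 12.4 ± 0.36 in lymphoma, 12.2 ± 0.48 in sarcoma and 11.4 ± 0.22 in TCC. Melanoma minus TCC was 1.96 (SE 0.48, limma adjusted p = 0.0123), a direction in which 3.53% of genes were called, with 5.73% in the other. Without TCC 2 the adjusted p was 0.0592. Lymphoma minus melanoma, -1.01, was not called (adjusted p = 0.0674) but was without melanoma 0 or without melanoma 1 (-1.40 at the largest), and melanoma minus sarcoma, 1.25, was called without melanoma 1 (adjusted p = 0.0489). The mean of the melanomas thus stood for a split within the type, with no melanoma between 12.15 and 14.27. HCC had the lowest level of the 23, at 10.9.

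CDK4 and MDM2 lie on the same chromosome in the annotation used for gene order, with other genes between them, and high levels of the pair occurred in the same melanomas. Over 23 tumors the Pearson r between CDK4 and MDM2 was 0.718, given as a description of tumors of unlike type. Melanomas 2 and 4 were more than 2 log2 units above the median for both genes. Melanoma 3 was 2.12 above for CDK4 and 1.15 above for MDM2. Histiocytic sarcoma and sarcoma 1 had raised MDM2 with CDK4 at 11.9 and 12.6, within the range of the other tumors.

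**Figure D3:**
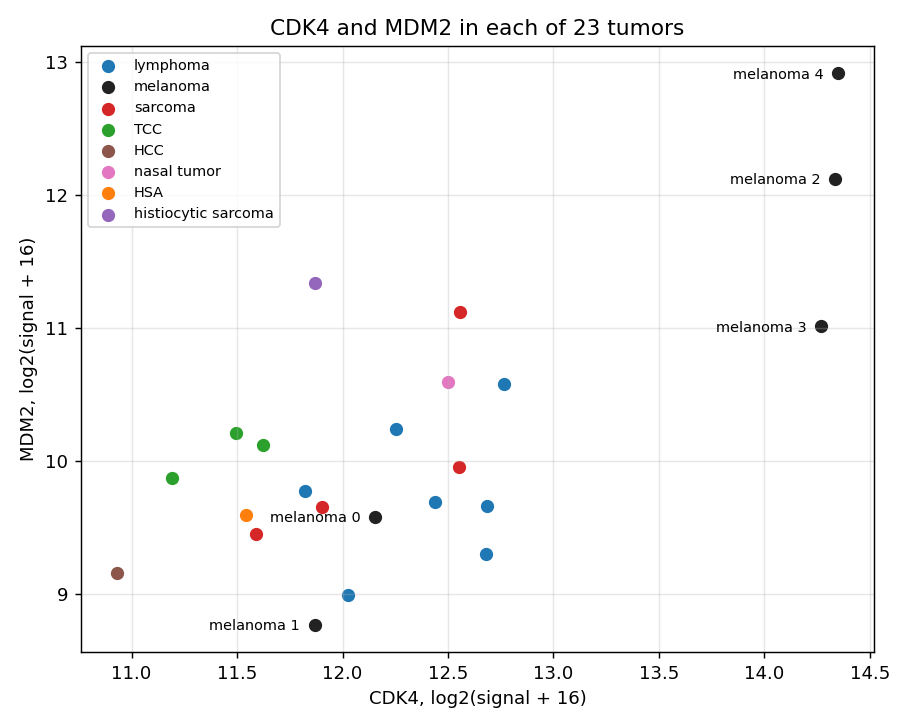
Each point is 1 of 23 tumors, coloured by type, with log2(signal + 16) of CDK4 on the horizontal and of MDM2 on the vertical axis. Melanomas 2, 3 and 4 lie apart on the right, and melanomas 0 and 1 lie among the other types.

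Genes beside CDK4 were high in the same tumors. A list of neighbours of CDK4 and MDM2 held 12 tested genes. Several stood more than 2 log2 units above their medians in melanomas 2, 3 and 4. METTL1, a tRNA methyltransferase gene, was above by 2.45 in melanoma 2, 2.40 in melanoma 3 and 3.28 in melanoma 4. CTDSP2, a phosphatase gene, was above by 2.30, 2.72 and 2.38 in the same order, and AVIL, an actin-binding protein gene, by 2.58, 3.08 and 2.61. AVIL was above by a like amount outside melanoma, at 2.54 in sarcoma 0 and 2.48 in soft tissue sarcoma 0. TSPAN31, which lies directly beside CDK4, was above by 2.58 in melanoma 2, 1.65 in melanoma 3 and 2.78 in melanoma 4. OS9 was highest in melanoma 4, at 3.65 above its median. Other members were not raised in all 3: LYZ, the lysozyme gene, stood at 0.77, -1.33 and -0.01 in melanomas 2, 3 and 4, and RAP1B, a small GTPase gene, at 1.99, 0.42 and -0.43. As a list, 4 of the 12 were called by the F test, a share close to the 35.6% of all genes. Lower in lymphoma than in melanoma were 5, beside 9.35% of all genes, with a median difference of -1.26.

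The extent of the raised stretch was read from gene order, a step chosen after the values of CDK4 had been seen. The order was taken from a RefSeq annotation of a wolf assembly, which placed 9345 of the 9972 tested genes, and distances in bases were not used. Consecutive measured genes at least 1 log2 unit above their 23-tumor medians were counted around CDK4. Melanoma 4 had 16 such genes, from MARS1 to SLC16A7. Melanoma 3 had 14, from MARS1 to ATP23, and melanoma 2 had 11, from KIF5A to LRIG3. Melanomas 0 and 1 had none. Over all genes and tumors, runs of 10 or more genes held 0.0349% of the 214935 gene-by-tumor values, in 6 runs. The runs at CDK4 in melanomas 4 and 3 were the longest and second longest, and that of melanoma 2 was level with another for the fourth place.

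The bounds of the stretches described next were also set after the values were seen. Within the 14 genes from MARS1 to ATP23, the median distance above the 23-tumor median was 2.06 in melanoma 2, 2.16 in melanoma 3 and 2.50 in melanoma 4. It was -0.07 in melanoma 0 and -0.51 in melanoma 1. In the other 18 tumors this median lay between -0.49 and 0.46, and at most 4 of the 14 genes were 1 log2 unit up. The left edge was shared by melanomas 3 and 4. DDIT3, a stress-response transcription factor gene, was 3.45 above its median in melanoma 3 and 5.47 in melanoma 4, but at its median in melanoma 2. It was also 4.17 above in soft tissue sarcoma 1, where the median distance of the stretch was -0.005. MARS1, MBD6 and DCTN2 likewise were raised in melanomas 3 and 4, and in melanoma 2 stood at -0.73, 0.11 and 0.36 from their medians. The 14 measured genes before MARS1 had medians of -0.49, -0.27 and -0.03 in melanomas 2, 3 and 4.

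**Figure D4:**
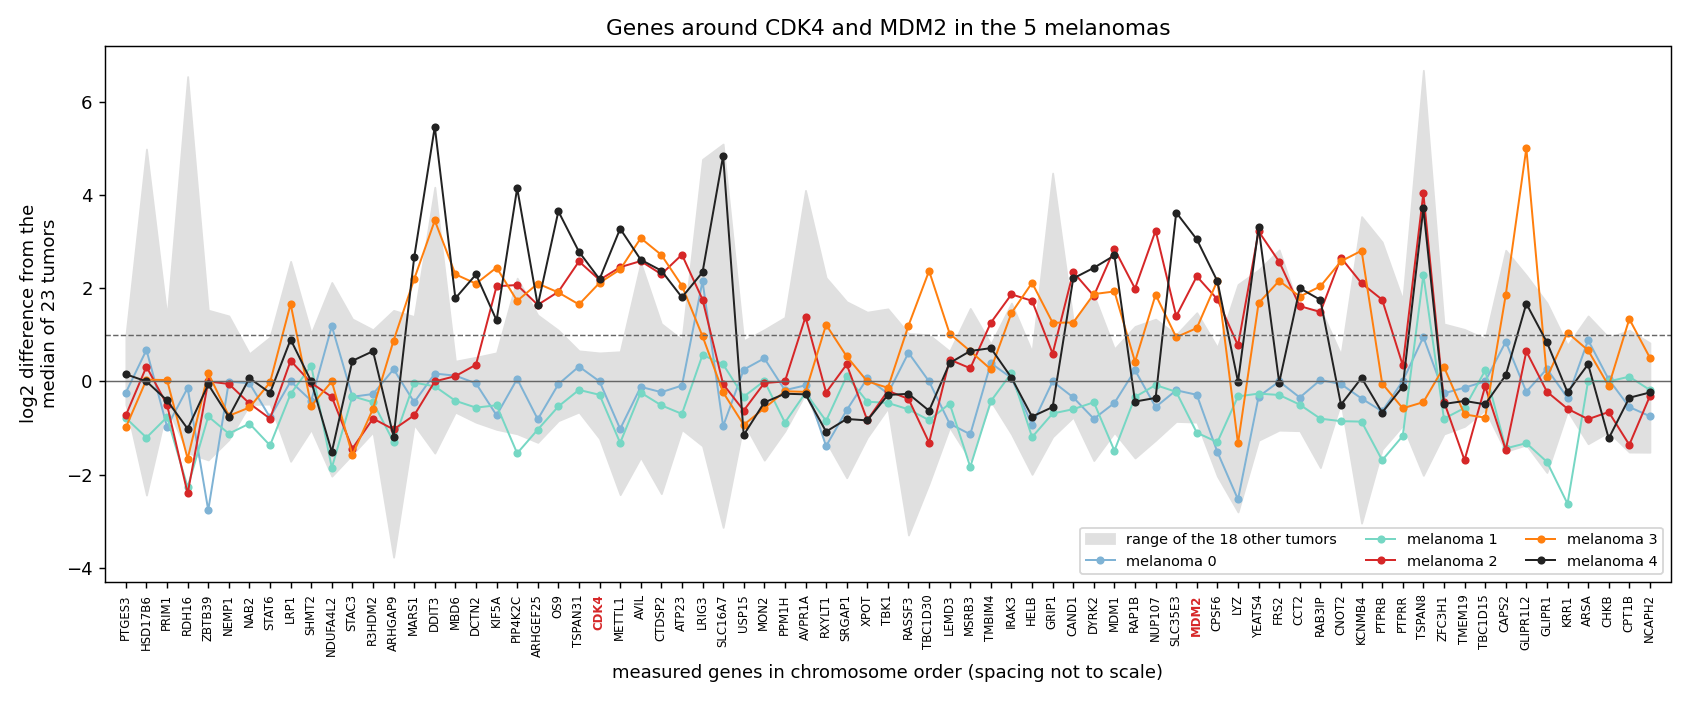
Measured genes are in chromosome order on the horizontal axis, without their spacing, and the vertical axis is the log2 distance from each gene's median over 23 tumors; lines are the 5 melanomas and the grey band is the range of the 18 other tumors. Melanomas 2, 3 and 4 rise above the dashed line at 1 around CDK4, fall back, and rise again in part around MDM2. Melanomas 0 and 1 form no such rise, though single genes run from -2.76 to 2.15 in melanoma 0 and -2.63 to 2.29 in melanoma 1.

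Between the neighbourhoods of CDK4 and MDM2, levels returned towards the medians. Of the 18 measured genes from LRIG3 to GRIP1, 5 were at least 1 log2 unit up in melanoma 2, 7 in melanoma 3 and 2 in melanoma 4, and up to 7 were in a tumor that was not a melanoma. Their median distances were 0.14, 0.59 and -0.28. In the 15 genes from CAND1 to KCNMB4, which include MDM2, the medians were 2.11 in melanoma 2, 1.86 in melanoma 3 and 2.001 in melanoma 4, with 14, 12 and 9 genes up. Melanomas 0 and 1 had none up, with medians of -0.34 and -0.50.

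The second stretch was less even than that at CDK4. In melanoma 4, SLC35E3 (3.63), MDM2 (3.05) and CPSF6 (2.15) were high, while RAP1B (-0.43), NUP107 (-0.35), FRS2 (-0.03) and CNOT2 (-0.50) were at or under their medians. YEATS4, a chromatin reader gene, was again up by 3.31, and CCT2, a chaperonin subunit gene, by 2.001. In melanoma 2, NUP107, a nuclear pore gene, was up by 3.24, YEATS4 by 3.22 and FRS2, an adaptor of growth factor receptors, by 2.57. In melanoma 3, FRS2 was up by 2.16 and MDM2 by 1.15. Outside melanoma, FRS2 was up by 2.82 in sarcoma 1 and 2.33 in histiocytic sarcoma. Unbroken runs at MDM2 were accordingly shorter, at 8 genes in melanoma 2, 3 in melanoma 4 and 2 in melanoma 3, and depended on the settings, from 2 to 12 genes in melanoma 2 and 0 to 4 in melanoma 3. Histiocytic sarcoma had a run of 4 genes ending at MDM2, with 8 of the 15 genes up and a median of 1.004, and sarcoma 1 had 7 up. The next gene, PTPRB, was still up by 1.75 in melanoma 2, and the 14 genes after KCNMB4 together had medians of -0.37, 0.20 and -0.23 in melanomas 2, 3 and 4. Of the 29 genes in both stretches, the highest of the 23 tumors was melanoma 4 for 13 genes, melanoma 3 for 7 and melanoma 2 for 6, and another tumor for 3.

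The melanocyte marker mean covered a range of 10.7 to 11.4 over the 5 melanomas. The proliferation genes had median distances of -1.15, 0.00, 0.40, 0.46 and -0.98 in melanomas 0 to 4. DNA copy number was not measured in these samples, and the cause of the raised stretches was not tested.

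The genes whose pattern over 23 tumors was most like that of each tested gene were ranked by Pearson r, with no test, since the tumors share types and the arrays. For MDM2 they were YEATS4 (0.890), SLC35E3 (0.846) and CCT2 (0.837), all in the stretch with MDM2. For CDK4 they were MDM1 (0.876), CAND1 (0.867) and KIF5A (0.850), the first 2 of them from the stretch at MDM2. For CCND1 they were KDELR2 (0.813), RRBP1 (0.786) and FKBP14 (0.783), and for CCND2 KAT6B (0.807), MTMR4 (0.781) and PATL1 (0.746). For CCND3 they were REST (0.883), PPP2R1B (0.860) and COG4 (0.858). For CDKN1A they were P4HA1 (0.783), SBDS (0.779) and ANXA2 (0.765), and CCND1 was its closest among the genes described here, at 0.669. RB1 had the weakest partners, FXYD5 (0.727), CAPG (0.699) and FRG1 (0.683). The rank (Spearman) correlation was lower for the 3 partners of MDM2 (0.692, 0.622 and 0.692) and of CDK4 (0.736, 0.727 and 0.639). It was 0.428 for FRG1 with RB1.

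The types with 1 tumor have no replicate check. HCC held the lowest level of CCND2, CCND3, CDK4 and RB1 of the 23 tumors, at -2.65, -3.38, -1.46 and -1.24 log2 units from the mean of the other 22. Its CCND3 signal was under 16, so that distance rests on a floor value. Its proliferation genes had a median distance of -1.96, the lowest of all tumors, and its CCND1 was 1.65 above the mean of the others. The nasal tumor combined the highest CCND1 (3.497 above the mean of the other 22) with the second lowest CCND2 (-2.25) and the second highest CDKN1A (1.59 above). Histiocytic sarcoma was the third highest for MDM2, 1.24 above the mean of the others. HSA was within 1 log2 unit of the mean of the other tumors for all 8 measured genes.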

How the data were processed

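Biopsies passed the study's checks on tumor content and RNA integrity, were amplified (NuGEN Ovation Pico WTA) and hybridised to Affymetrix Canine Genome 2.0 arrays. The authors used MAS5 and deposited its intensity, 1 linear signal per probeset. MAS5 ran in Affymetrix Expression Console, whose release was not given in the sources used here.

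Measuring probesets numbered 42924, comprising 29254 with 1 gene symbol, 439 with several and 13231 that are unnamed here. Those with several were not used, and symbols were not updated. Values were log2(signal + 16), averaged per gene. A gene was tested if at least 3 of 23 arrays exceeded 7.03, the median of all gene values. The types with more than 1 tumor were fitted together with limma 3.58.1 under R 4.3.3, as a linear model per gene with moderated tests and a variance trend. Ratios of D-type cyclins were tested by exact permutation in SciPy 1.17.1. Scripts were tested on simulated data. The number of arrays limits the precision.

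The genes, the gene lists and the settings were chosen with earlier results of these data known. Besides all 9 genes, the text names up to 4 called genes of each pathway list with the largest difference, neighbours more than 2 log2 units from their median where the gene itself was, and the 3 genes most like each gene. MARS1 and the other genes of the gene-order description, MTAP, MLLT3, MCM5, FDXR, TIGAR, LYZ, FADD and ANO1 were chosen after their values were seen. Alternatives covered the pseudocount, normalization, filter, probesets, variance model, block, sarcoma definition and each tumor left out. The study took each tumor from a separate dog.

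Marker lists for other cell types were called by the F test in 9 of 9 lymphocyte, 7 of 7 melanocyte, 6 of 6 epithelial, 9 of 9 fibroblast and matrix, 2 of 5 endothelial and 2 of 7 macrophage genes. The endothelial and macrophage shares were near the 35.6% of all genes.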

Additional observations from a re-analysis of the deposited data

Results flagged for a closer look

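Within the types of 4 to 10 tumors, 33 groups of values were examined for a single tumor far from the rest, and 3 such values were found. Some can arise by chance, and since the groups share tumors and genes, whether 3 is more than chance gives was not tested. CDKN2B was 5.89 in lymphoma 4, against 4.25 to 4.70 in the other 6 lymphomas. CDKN2B was 6.72 in melanoma 4, against 4.14 to 4.25 in the other 4 melanomas. The lower CDKN2B values in both types lay near the floor of the array, which narrows their spread. The log2 ratio of CCND2 to CCND3, relative to its 23-tumor median, was -3.23 in lymphoma 1, against -0.32 to 1.87 in the other lymphomas.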

How the results depend on the processing

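The F test called 4 of the tested genes, 3 to 4 with single tumors left out, and 2 with the title number as a replicate block. The gene-by-pair calls were 7, 6 to 9 with single tumors left out, 5 with the replicate block, and 9 with only the tumors titled STS as sarcoma, where sarcoma minus TCC was called for CCND1 (3.12) and CCND3 (-2.05). The ratio calls were 3, 1 after quantile normalization and 0 to 3 with single tumors left out. The numbers do not pair the tumors: deviations of tumors with the same number and unlike type had a mean correlation of 0.01, and those with different numbers -0.00. Under the replicate block CDK4, melanoma minus TCC, CCND3, lymphoma minus melanoma, and CCND3, lymphoma minus sarcoma, were no longer called, with adjusted p of 0.0794, 0.0754 and 0.0909 by limma, while CDKN1A, lymphoma minus TCC, was called at 0.0247. Calls and directions were kept in 1438 of 1548 single-difference results, with 59 calls lost, 10 gained and 41 reversed in sign, none of them called in either fit. Under the replicate block the reversed differences were CCND2 in lymphoma minus sarcoma (-0.33) and lymphoma minus TCC (-0.52), CDK4 in lymphoma minus sarcoma (-0.18), CCND3 in lymphoma minus TCC (-0.042), CDKN1A in melanoma minus TCC (-0.014) and MDM2 in sarcoma minus TCC (0.23). MDM2 also reversed in sarcoma minus TCC with the brightest probeset (0.055) and in lymphoma minus sarcoma with STS tumors alone (0.047). With single tumors left out, lymphoma minus sarcoma was -0.028 to 1.54 for CCND2 and -0.49 to 0.063 for MDM2, and lymphoma minus TCC -0.23 to 0.64 for CCND2, -0.11 to 0.36 for CCND3 and -0.35 to 0.068 for RB1. Melanoma minus sarcoma was then -0.80 to 0.38 for CCND1 and -0.43 to 0.55 for CCND3, melanoma minus TCC -0.39 to 0.41 for CDKN1A and -0.054 to 0.36 for RB1, and sarcoma minus TCC -1.31 to 0.26 for CCND2 and -0.38 to 0.18 for MDM2. Among the ratios, melanoma minus sarcoma was -0.38 to 1.95 for CCND1 to CCND2 and -1.20 to 0.80 for CCND1 to CCND3. The ratio of CCND2 to CCND3 was -0.10 to 0.80 in lymphoma minus melanoma, -1.56 to 0.052 in lymphoma minus sarcoma, -0.14 to 0.73 in lymphoma minus TCC and -0.58 to 0.47 in melanoma minus TCC. The cause of these changes was not tested. Runs around CDK4 kept 11 to 12 genes in melanoma 2, 14 to 15 in melanoma 3 and 11 to 16 in melanoma 4 under 6 settings chosen after seeing the data. CDKN2B lay below a signal of 16 in most tumors, so no difference in it could be measured there.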

Other observations

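Other long runs of neighbouring raised genes, none holding a gene described in the report, occurred in the same melanomas. Melanoma 3 had runs of 13 genes from USP8 to GNB5, 9 from ATP6V1E2 to MSH6 and 8 from FEM1B to UACA. Melanoma 2 had 8 genes from GLDN to GNB5 and 8 from TIMP3 to RIC8B. Melanoma 4 had 11 genes from LMBR1L to KANSL2 and 8 from TLN2 to USP3. Melanoma 0, with CDK4 at 12.15, had 10 genes from MBNL2 to SLITRK6. Of the 13 runs of 8 or more genes in all tumors, TCC 1 held the only one outside melanoma, from PSMD14 to WDSUB1.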
